A study of Homo sapiens with 6 samples.

Results

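ATF4 stress and amino acid response genes were followed in subcutaneous tumours grown from PC-3 cells, a line derived from a human prostate cancer metastasis, after knockdown of versican (VCAN), a large proteoglycan of the extracellular matrix. The set holds 10 genes, taken by gene symbol from the 67026 genes of the count table. They are the transcription factor ATF4, its partner DDIT3 (also called CHOP), the stress targets TRIB3, CHAC1 and GDF15, the mTORC1 inhibitors DDIT4 and SESN2, and the amino acid enzymes ASNS, PSAT1 and PHGDH. All 10 matched a row of the table, 9 were tested and SESN2 was listed at 0.

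A short hairpin RNA, delivered by lentivirus, targeted VCAN (shVCAN, 3 tumours) or GFP (shGFP, the knockdown control, 3 tumours), and infected cells of either kind had been selected with puromycin at 2 µg/mL. The same number of cells was injected in each case under the skin of male NSG mice (NOD.Cg-Prkdcscid Il2rgtm1Wjl/SzJ) aged 4 to 5 weeks, in PBS with Matrigel, and growth was followed for 4 weeks. These mice lack mature lymphocytes and natural killer cells but keep other host cells, so a tumour sample can hold mouse stroma and blood cells. The labels number the xenografts but do not say that each came from its own mouse, so p-values measure the spread between these samples.

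In the integrated stress response, kinases that sense amino acid shortage, misfolded protein, heme shortage or viral RNA phosphorylate the translation factor eIF2alpha. General translation then falls while that of the ATF4 messenger RNA increases, so ATF4 is regulated largely at the level of translation and an RNA level does not report its protein. ATF4 binds composite C/EBP-ATF elements with partners such as CHOP. It switches on genes for amino acid uptake and synthesis, redox balance and, under lasting stress, cell death.

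The RefSeq promoter table (GRCh38.p14) gave windows for all 10 genes, each running from 250 bases before to 50 bases after an annotated start. Both strands were searched for TGATGNAA, the core of the C/EBP-ATF element. It was found for 2 of the 10 genes, CHAC1 and ASNS, against 4.46% of 27305 genes with a window. TGACGT, the first part of the cyclic AMP response element, was found in none of the members' windows, against 9.64% of genes. A match is a run of letters and not a mapped site, and elements outside the window were not searched. The windows of CHAC1 and ASNS are shown because they hold the element, which is in capitals, and those of GDF15 and DDIT4 because these genes had the largest falls of the set.
CHAC1 (chr15:40953221-40953520, plus strand): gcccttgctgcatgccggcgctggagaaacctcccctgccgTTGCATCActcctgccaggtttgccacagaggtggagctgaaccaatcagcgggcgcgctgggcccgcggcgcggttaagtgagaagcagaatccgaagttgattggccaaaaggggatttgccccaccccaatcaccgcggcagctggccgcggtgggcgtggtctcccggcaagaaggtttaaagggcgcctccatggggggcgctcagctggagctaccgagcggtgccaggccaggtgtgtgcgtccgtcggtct
ASNS (chr7:97872359-97872658, minus strand): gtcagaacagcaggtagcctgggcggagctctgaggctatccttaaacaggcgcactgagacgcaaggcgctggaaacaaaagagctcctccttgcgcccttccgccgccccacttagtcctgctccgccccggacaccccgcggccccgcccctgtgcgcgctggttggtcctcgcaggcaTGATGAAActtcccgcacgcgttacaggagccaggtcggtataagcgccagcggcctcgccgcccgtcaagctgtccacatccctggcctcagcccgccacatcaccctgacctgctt
GDF15 (chr19:18385908-18386207, plus strand): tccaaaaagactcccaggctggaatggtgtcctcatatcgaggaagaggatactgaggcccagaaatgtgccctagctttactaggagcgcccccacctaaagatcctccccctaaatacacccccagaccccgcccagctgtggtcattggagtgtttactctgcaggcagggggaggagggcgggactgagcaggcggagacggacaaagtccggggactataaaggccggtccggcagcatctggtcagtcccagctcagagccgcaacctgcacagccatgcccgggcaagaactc
DDIT4 (chr10:72273674-72273973, plus strand): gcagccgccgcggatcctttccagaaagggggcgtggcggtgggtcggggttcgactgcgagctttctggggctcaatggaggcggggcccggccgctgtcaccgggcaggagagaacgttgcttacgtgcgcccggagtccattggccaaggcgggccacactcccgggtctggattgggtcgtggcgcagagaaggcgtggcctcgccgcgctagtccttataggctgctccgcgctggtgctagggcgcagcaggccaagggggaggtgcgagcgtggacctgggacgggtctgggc
The element of ASNS read TGATGAAA on the gene's strand and began 68 bases before the start. That of CHAC1 read TGATGCAA on the opposite strand and lay 209 to 202 bases before the start.

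Libraries held 12959840 to 13327617 counts in shVCAN tumours and 11253058 to 12936539 in shGFP tumours. VCAN itself had 69, 39 and 44 counts in shVCAN tumours 1 to 3, against 133, 104 and 121 in shGFP tumours, a log2 fold change of −1.53 (SE 0.207, edgeR adjusted p = 4.59e-07, exact permutation p = 0.1, the smallest that 3 against 3 allows). Keratin genes of PC-3 were abundant and the prostate antigen KLK3, which this androgen-independent line is known to lack, was listed at 0. As set out with SESN2 below, a 0 in this table does not show that a gene is silent. The list of PC-3 and prostate epithelial markers was lower in shVCAN too, at 1285 to 1335 CPM against 1560 to 1767 CPM in shGFP (4 of 7 tested markers fell and none rose). Its median log2 fold change was −0.19, and −0.026 with scaling by library size alone, under which 2 markers fell. Marker counts in this paragraph stand beside 21.1% of all tested genes called lower and 19.2% called higher. The 13 messenger RNAs of the mitochondrial genome took 6.39% to 7.63% of counts in shVCAN tumours, against 13.3% to 16.2% in shGFP tumours. Summed levels of fibroblast and pericyte markers were also lower in shVCAN, at 397 to 492 CPM against 838 to 944 CPM (1 of 8 tested markers rose and 5 fell), as were those of endothelial markers, at 112 to 126 CPM against 172 to 180.1 CPM (5 of 6 fell). Skeletal muscle markers summed to 299 to 406 CPM against 513 to 686 CPM (6 of 8 fell). Macrophage markers summed to 5.30 to 7.22 CPM against 6.91 to 10.03 CPM (1 of 5 fell), with C1QA, C1QB, C1QC, CD163 and AIF1 listed at 0. Of the 7 adipocyte markers 2 were tested, 1 of which rose and 1 fell (58.2 to 62.0 CPM against 50.5 to 58.9 CPM), and ADIPOQ was listed at 0. Lymphocyte markers were too low to test, and 4 of 6 were listed at 0. The part of host tissue and of RNA quality in the values below was not tested, and in bulk tumours fewer cells of a type and less RNA per cell cannot be told apart. The marker rows are human genes, and any removal of mouse reads is not stated. Whether their reads came from PC-3 cells or from host cells was not tested.

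GDF15, DDIT4, TRIB3 and CHAC1 were well below their shGFP levels in shVCAN tumours, ATF4 and PHGDH were slightly lower, and the values of DDIT3 and PSAT1 overlapped between the groups. Values are CPM (counts-per-million, scaled by TMM), a log2 fold change sets shVCAN over shGFP and carries a standard error (SE), and a gene was called at an adjusted p under 0.05 in edgeR's quasi-likelihood test over all genes. Of the 10 genes 6 were called lower (ATF4, TRIB3, CHAC1, PHGDH, DDIT4 and GDF15), none was called higher, 3 were not called and SESN2 was not tested. Among all 16254 tested genes 21.1% were called lower and 19.2% higher, 40.3% in all. The median log2 fold change was −0.64 over the 9 tested members and 0.0014 over all tested genes. A fall of at least 2-fold was found for GDF15 and DDIT4, and for 2.68% of all tested genes, and a rise of that size for none of the members and 2.77% of tested genes. The CPM of the groups did not overlap in 7 members, all lower in shVCAN, which was so for 24.8% of tested genes, against 23.9% with all shVCAN tumours higher and 48.7% either way. The level of the 10 genes summed to 577 to 603 CPM in shVCAN tumours and to 836 to 868 CPM in shGFP tumours.

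**Figure D1:**
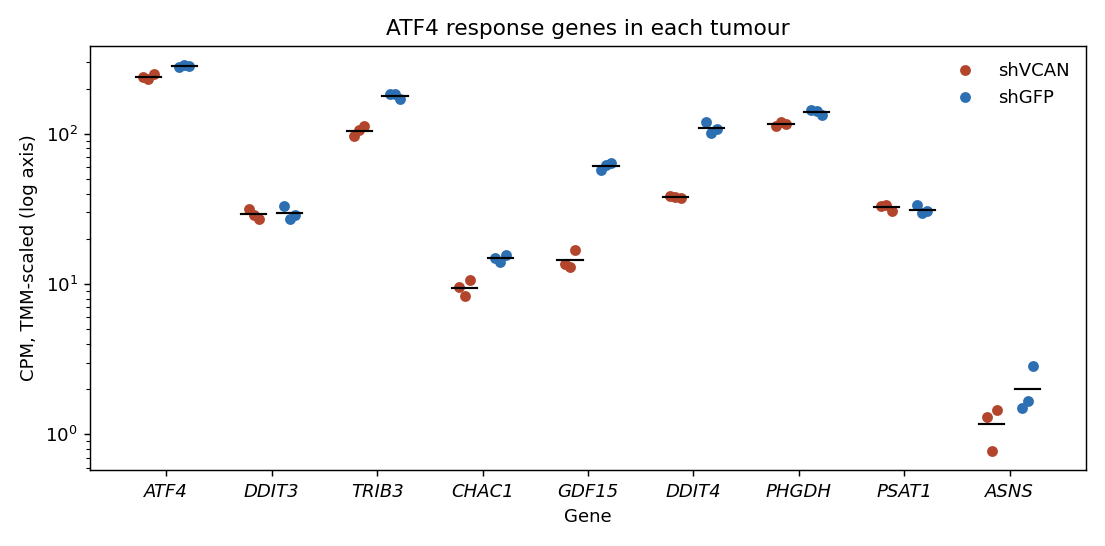
Level of the 9 tested genes in each tumour, in CPM on a log axis. Each dot is a tumour (3 per group, shVCAN left of shGFP) and each bar a group mean. GDF15 and DDIT4 are the most widely separated, while DDIT3 and PSAT1 overlap between groups.

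ATF4 (ENSG00000128272.14, chromosome 22, 39519695 to 39522685, plus strand, GRCh38) was slightly lower after the knockdown. It was measured at 239, 232 and 251 CPM in shVCAN tumours 1 to 3, against 279, 286 and 283 CPM in shGFP tumours. All 3 shVCAN tumours lay below all 3 shGFP tumours, with means of 241 ± 9.56 and 283 ± 3.88 CPM (SD, n = 3 each). The log2 fold change was −0.23 (SE 0.0501, adjusted p = 0.00039). The call was lost under scaling by library size alone (log2 fold change −0.066, adjusted p = 0.341), a scaling that moved the median of all tested genes to 0.17.

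DDIT3 encodes CHOP, a basic leucine zipper partner of ATF4 that is associated with cell death under lasting stress. Its level was 31.4, 29 and 27.0 CPM in shVCAN tumours and 33.1, 27.0 and 28.9 CPM in shGFP tumours. The groups overlapped, with means of 29.1 ± 2.22 and 29.7 ± 3.13 CPM (SD, n = 3 each). The log2 fold change of −0.028 (SE 0.101, adjusted p = 0.851) had a 95% interval of −0.24 to 0.18. With an offset for exonic length it was called lower (−0.26, adjusted p = 0.0407). DDIT3 (ENSG00000175197.12, chromosome 12, 57516588 to 57521737, minus strand) shares 39.6% of its exonic bases with other annotated genes, 31.6% with genes on the other strand, and whether strand was used in counting is not stated in the sources used here.

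TRIB3, a pseudokinase induced by ATF4 and CHOP that is known to dampen ATF4 activity and AKT signalling, showed a larger fall. It had 96.6, 107 and 112 CPM in shVCAN tumours, against 184, 183 and 171 CPM in shGFP tumours. The highest shVCAN tumour stood well under the lowest shGFP tumour, and the log2 fold change was −0.77 (SE 0.0611, adjusted p = 1.34e-11). CHAC1, an enzyme that breaks down glutathione and is a textbook target of ATF4, moved the same way at a lower level. It had 9.51, 8.40 and 10.6 CPM in shVCAN tumours, against 14.9, 14.03 and 15.5 CPM in shGFP tumours. The groups were again separate, with a log2 fold change of −0.64 (SE 0.143, adjusted p = 0.000545). TRIB3 (ENSG00000101255.11) lies on chromosome 20 (362835 to 397559, plus strand) and CHAC1 (ENSG00000128965.13) on chromosome 15 (40952962 to 40956519, plus strand), and neither shares exonic bases with another annotated gene.

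GDF15, a secreted cytokine of the TGF-beta family that rises in many stress states and acts on appetite through a brainstem receptor, had the largest fall of the set. Its level was 13.7, 13.0 and 16.9 CPM in shVCAN tumours, against 57.1, 62.4 and 64.4 CPM in shGFP tumours. Every shVCAN tumour held less than the lowest shGFP tumour by a wide margin, at a mean of 14.5 ± 2.099 CPM against 61.3 ± 3.76 CPM (SD, n = 3 each). The fitted level in shVCAN was 0.237 times that in shGFP, a log2 fold change of −2.08 (SE 0.0996, adjusted p = 1.38e-16), which ranked 67 among all tested genes counted from the most negative. GDF15 (ENSG00000130513.6, chromosome 19, 18374731 to 18389176, plus strand) shares no exonic base with another annotated gene.

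DDIT4 encodes REDD1, an inhibitor of mTORC1 signalling that ATF4, hypoxia and glucocorticoids are each known to induce. It had 38.8, 37.8 and 37.4 CPM in shVCAN tumours, against 120.3, 102 and 107 CPM in shGFP tumours. The shVCAN tumours lay close together, with an SD of 0.722 CPM, far below the lowest shGFP tumour, and shGFP tumour 1 was the highest of its group. The log2 fold change was −1.53 (SE 0.0732, adjusted p = 1.3e-16). Of the exonic bases of DDIT4 (ENSG00000168209.5, chromosome 10, 72273920 to 72276036, plus strand), 41.2% lie under the antisense gene DDIT4-AS1, whose row held 9, 17 and 5 counts in shVCAN tumours against 51, 42 and 32 in shGFP tumours. Without a stated strand setting, reads of the pair cannot be told apart. DDIT4 itself had 513 to 536 counts in shVCAN and 1098 to 1445 in shGFP tumours, and the part of the antisense gene in them was not tested.

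SESN2 (ENSG00000130766.5, chromosome 1, 28259527 to 28282491), a leucine sensor that also restrains mTORC1, was listed at 0 in all 6 libraries and is given no fold. TUBB and LDHA, genes that nearly every cell uses, were listed at 0 too, so a 0 in this table does not show that a gene is silent. The paralogs of SESN2 had reads. Values of SESN3 overlapped between the groups, at 43.6, 31.5 and 41.1 CPM in shVCAN tumours and 33.4, 33.4 and 30.8 CPM in shGFP tumours. SESN1 was higher in shVCAN (9.63 ± 1.50 CPM against 6.81 ± 0.393 CPM, log2 fold change 0.50, SE 0.173, adjusted p = 0.0214), a call that was lost without shVCAN tumour 3 (adjusted p = 0.144) or shGFP tumour 3 (adjusted p = 0.0574).

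**Figure D2:**
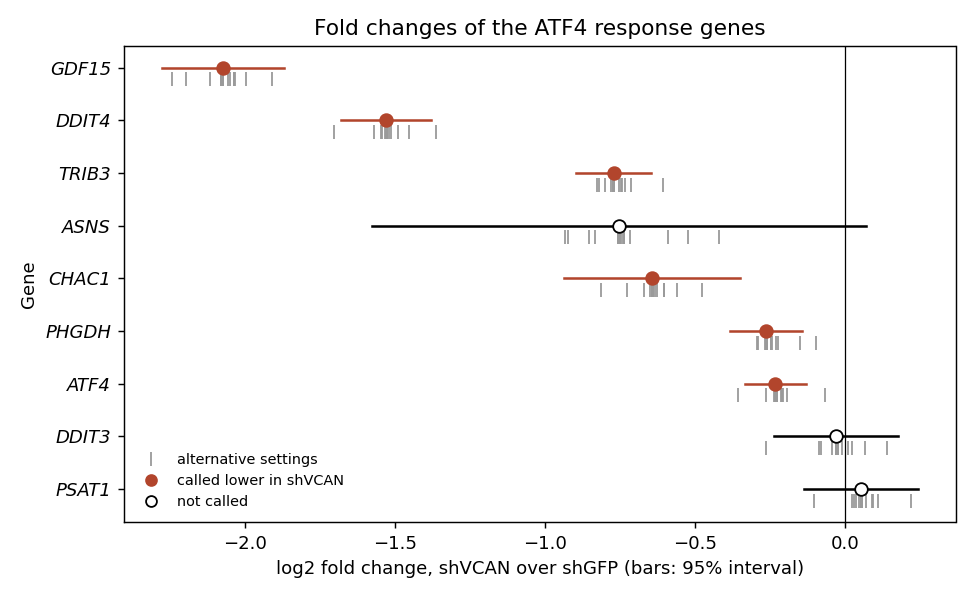
Log2 fold changes (shVCAN over shGFP) of the 9 tested genes with 95% intervals, and grey ticks for the same value under each alternative setting. GDF15, DDIT4, TRIB3 and CHAC1 stay below 0 in every setting shown, while the ticks of DDIT3 and PSAT1 lie on both sides of 0.

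Of the enzymes of amino acid synthesis PHGDH was called lower, and PSAT1 and ASNS were not called. PHGDH, which catalyses the first step of serine synthesis from a glycolytic intermediate, had 113, 121 and 116 CPM in shVCAN tumours, against 145, 141 and 133 CPM in shGFP tumours. The groups did not overlap, and the log2 fold change was −0.26 (SE 0.0589, adjusted p = 0.000554). That call was also lost with library size alone (−0.097, adjusted p = 0.214). PSAT1, the transaminase of the next step, had 33.2, 33.5 and 30.8 CPM in shVCAN tumours and 33.5, 29.5 and 30.9 CPM in shGFP tumours. Those values overlapped, and the log2 fold change of 0.053 (SE 0.0928, adjusted p = 0.689) had a 95% interval of −0.14 to 0.24. PHGDH (ENSG00000092621.12) lies on chromosome 1 (119648411 to 119744226) and PSAT1 (ENSG00000135069.14) on chromosome 9 (78297143 to 78330093), both on the plus strand.

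ASNS, which makes asparagine and whose promoter window holds the element shown above, had too few reads to place. Its counts were 18, 11 and 20 in shVCAN tumours, against 18, 18 and 31 in shGFP tumours. The CPM did not overlap (0.776 to 1.46 against 1.50 to 2.83), yet the log2 fold change of −0.75 (SE 0.403, adjusted p = 0.14) had a 95% interval of −1.58 to 0.069. Of its exonic bases (ENSG00000070669.17, chromosome 7, 97852118 to 97872542, minus strand), 44.6% are also annotated to an overlapping transcript on the same strand, whose row held 6, 13 and 18 counts in shVCAN and 28, 12 and 23 in shGFP tumours. How the authors' counting treated reads that fit both is not stated in the sources used here, so the ASNS level is uncertain.

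Per kilobase of annotated exon (GENCODE 29), the order of levels within a tumour group differed between the groups. In shVCAN tumours ATF4 stood highest at 95.8 ± 3.80 CPM per kilobase, followed by TRIB3 at 30.6 ± 2.30, DDIT3 at 22.3 ± 1.70, DDIT4 at 18.5 ± 0.351, PSAT1 at 14.9 ± 0.677, PHGDH at 12.6 ± 0.432, GDF15 at 6.97 ± 1.01 and CHAC1 at 4.61 ± 0.531. In shGFP tumours ATF4 was also highest at 112 ± 1.54 CPM per kilobase, then DDIT4 at 53.4 ± 4.58, TRIB3 at 52.3 ± 2.13, GDF15 at 29.4 ± 1.80, DDIT3 at 22.7 ± 2.40, PHGDH at 15.1 ± 0.685, PSAT1 at 14.3 ± 0.914 and CHAC1 at 7.20 ± 0.365. DDIT4 and TRIB3 did not differ beyond their SD in shGFP tumours, nor did PHGDH and PSAT1. GDF15 thus stood above DDIT3 in shGFP tumours and below it in shVCAN tumours. Exons of all annotated transcripts were joined for these lengths, which places a gene lower where some of those exons are not used. Exon use was not measured.

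Ratios of counts within a tumour, which no library scaling changes, set the targets against the factors. TRIB3 reads per ATF4 read were 0.437 ± 0.0293 in shVCAN tumours and 0.635 ± 0.0283 in shGFP tumours (SD, n = 3 each), without overlap. GDF15 reads per ATF4 read were 0.0603 ± 0.00628 in shVCAN and 0.217 ± 0.0113 in shGFP tumours, and DDIT4 reads per ATF4 read were 0.158 ± 0.00780 and 0.389 ± 0.0388. CHAC1 per DDIT3 was 0.328 ± 0.0557 in shVCAN and 0.502 ± 0.0464 in shGFP tumours. PSAT1 per PHGDH went the other way, at 0.280 ± 0.0140 in shVCAN against 0.224 ± 0.0129 in shGFP tumours. Of 7 ratios compared, 6 reached an exact two-sided permutation p of 0.1, the smallest possible with 3 against 3 (0.117 adjusted over the 7). The ratios are built from the levels given above, so they are not independent of those calls. DDIT3 per ATF4 gave an exact permutation p of 0.2, with 0.121 ± 0.0123 in shVCAN and 0.105 ± 0.0126 in shGFP tumours.

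Genes upstream of ATF4 were measured next. The counts of this and later lists stand beside 21.1% of all tested genes called lower and 19.2% called higher. Of 19 tested kinases, phosphatase subunits and eIF2 factors, 6 fell, 3 rose and 10 were not called, with a median log2 fold change of −0.012 that lay above 0 with library size alone (0.15) and with upper quartile factors (0.028). Only 1 rose without shVCAN tumour 1 or without shGFP tumour 3, and 7 rose and 3 fell with library size alone. PPP1R15A (GADD34), the stress-induced subunit that leads a phosphatase to eIF2alpha and is itself a target of the pathway, had 40.8, 41.1 and 34.1 CPM in shVCAN tumours, against 69.2, 65.7 and 72.2 CPM in shGFP tumours (log2 fold change −0.84, SE 0.0807, adjusted p = 8.8e-10). Its constitutive counterpart PPP1R15B fell to 69.6 ± 3.06 CPM in shVCAN, against 94.4 ± 1.42 CPM in shGFP (−0.44, adjusted p = 2.08e-06). Of the kinases, the heme sensor EIF2AK1 (HRI) fell to 70.4 ± 2.95 CPM in shVCAN, against 94.0 ± 1.25 CPM in shGFP (adjusted p = 4.51e-06). The endoplasmic reticulum kinase EIF2AK3 (PERK) was at 28.7 ± 2.50 CPM in shVCAN and 37.3 ± 5.61 CPM in shGFP tumours (adjusted p = 0.00394, and 0.0965 with library size alone). EIF2AK2 was called lower (log2 fold change −0.21, adjusted p = 0.0205), though its groups overlapped. EIF2AK4 (GCN2), the kinase that senses amino acid shortage, was not called (log2 fold change −0.0029, adjusted p = 0.974).

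Of 14 tested partners and regulators of ATF4, 6 fell, 1 rose and 7 were not called, at a median of −0.18. That median was −0.014 with library size alone, under which 4 fell. The single higher call was lost without shVCAN tumour 2 or 3 or shGFP tumour 2 or 3, in DESeq2's Wald test and with the exonic length offset, and 2 rose with library size alone. NUPR1, a small chromatin protein induced by ATF4, had 4.28, 6.70 and 6.42 CPM in shVCAN tumours, against 20.2, 18.4 and 17.6 CPM in shGFP tumours. The groups were far apart, with a log2 fold change of −1.69 (SE 0.16, adjusted p = 5.76e-10). CEBPB, a C/EBP factor that pairs with ATF4, fell to 108 ± 5.44 CPM in shVCAN, against 154 ± 6.66 CPM in shGFP (−0.50, adjusted p = 4.49e-08). The acetyltransferase EP300 fell to 58.2 ± 3.34 CPM, against 80.0 ± 3.82 CPM in shGFP (adjusted p = 3.94e-06), and BTRC, which marks ATF4 for degradation, to 17.0 ± 1.74 CPM against 24.3 ± 5.59 CPM in shGFP (adjusted p = 0.00266).

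Amino acid uptake and amino acid synthesis genes had different counts of calls. Of 16 tested transporters 8 fell, 2 rose and 6 were not called, at a median of −0.14 that was 0.023 with library size alone, which called 7 lower and 5 higher. Only 1 rose without shVCAN tumour 3. SLC7A11, the cystine importer that feeds glutathione synthesis, had 47.1, 42.1 and 42.5 CPM in shVCAN tumours, against 73.1, 74.6 and 80.9 CPM in shGFP tumours. All shVCAN tumours were lower, with a log2 fold change of −0.80 (SE 0.0747, adjusted p = 4.95e-10). Its heavy chain SLC3A2 fell to 144 ± 2.997 CPM in shVCAN, against 194 ± 6.73 CPM in shGFP (adjusted p = 1.5e-07). The cationic amino acid carrier SLC7A1 fell to 39.4 ± 3.75 CPM, against 63.7 ± 1.69 CPM in shGFP (adjusted p = 2.55e-08), and the lysosomal carrier SLC38A7 to 30.9 ± 2.33 CPM, against 48.7 ± 2.77 CPM in shGFP (adjusted p = 3.37e-07). SLC7A5, which shares the heavy chain SLC3A2 and imports leucine, was not called (log2 fold change 0.051, adjusted p = 0.562), though it was with library size alone (0.22, adjusted p = 0.0087).

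Of 15 tested enzymes of serine, glycine, proline and one-carbon metabolism, 5 rose, 1 fell and 9 were not called, at a median of 0.14. Without shVCAN tumour 1, and without shVCAN tumour 3, 3 rose, and with library size alone 9 rose and none fell. PSPH, the last enzyme of serine synthesis after PHGDH and PSAT1, had 50.01, 48.3 and 48.5 CPM in shVCAN tumours, against 41.4, 37.6 and 36.3 CPM in shGFP tumours. It was higher in every shVCAN tumour, with a log2 fold change of 0.35 (SE 0.0812, adjusted p = 0.000903). Within the serine pathway the first enzyme was thus called lower, the next one not called and the last one higher. The call of the first enzyme, PHGDH, was lost with library size alone (adjusted p = 0.214). MTHFD1, of the cytosolic folate cycle, fell to 100.4 ± 6.25 CPM in shVCAN, against 121 ± 4.11 CPM in shGFP (adjusted p = 0.000734, and adjusted p = 0.209 with library size alone). ALDH18A1, which starts proline synthesis, rose by a log2 fold change of 0.26 (adjusted p = 0.00672). That call was lost without shVCAN tumour 1 (adjusted p = 0.0563) or shGFP tumour 1 (adjusted p = 0.0649). PYCR3 was listed at 0.

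**Figure D3:**
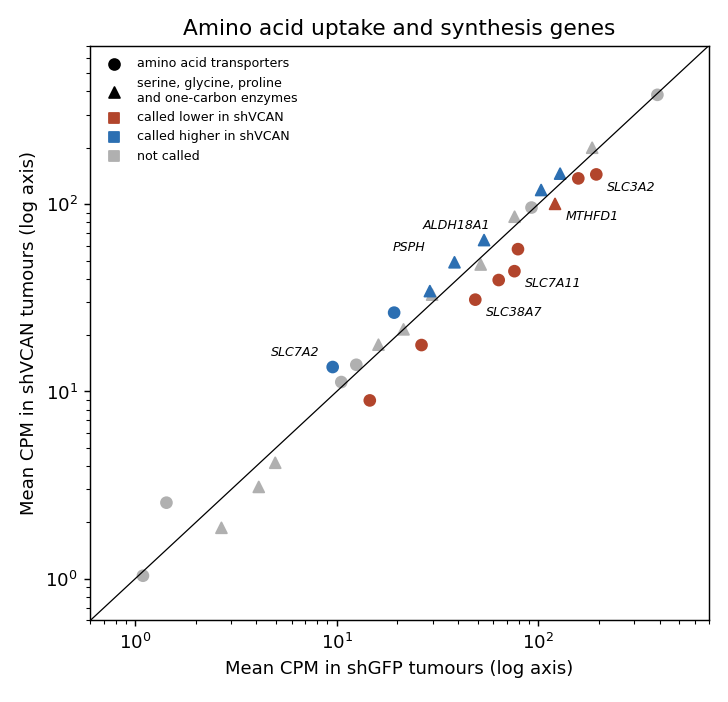
Mean level in shVCAN tumours (vertical) against shGFP tumours (horizontal) of 16 amino acid transporters (circles) and 15 synthesis and one-carbon enzymes (triangles), in CPM on log axes. The line marks equal levels, with 8 transporters called lower below it and 5 enzymes called higher above it.

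Of 26 other tested stress targets of ATF4 and CHOP, 9 fell, 5 rose and 12 were not called, at a median of −0.12 that was 0.046 with library size alone, which called 6 lower and 11 higher, while upper quartile factors called 9 higher. The secreted glycoprotein stanniocalcin 2 (STC2) had 37.0, 44.6 and 44.0 CPM in shVCAN tumours, against 100.4, 88.6 and 103 CPM in shGFP tumours, a log2 fold change of −1.22 (SE 0.0786, adjusted p = 1.4e-13). The peptide hormone gene ADM2 was also lower in each shVCAN tumour (11.9, 11.1 and 10.1 CPM, against 23.7, 21.7 and 23.6 CPM in shGFP, −1.06, SE 0.123, adjusted p = 3.36e-08). KLHL24 fell to 28.3 ± 2.11 CPM in shVCAN, against 45.1 ± 0.780 CPM in shGFP (adjusted p = 2.55e-07). EIF4EBP1, the translation repressor that mTORC1 phosphorylates, went the other way, with 169.9, 161 and 150.1 CPM in shVCAN tumours against 108, 114 and 114 CPM in shGFP tumours (0.52, SE 0.0599, adjusted p = 2.71e-08). CHAC2, the paralog of CHAC1, which degrades glutathione slowly, rose to 8.83 CPM in shVCAN, against 3.98 CPM in shGFP (log2 fold change 1.15, adjusted p = 3.18e-05), opposite to CHAC1.

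Aminoacyl-tRNA synthetases of the ATF4 response charge transfer RNAs with amino acids. Of 12 tested, 6 fell, 2 rose and 4 were not called, at a median of −0.18. With library size alone 2 fell and 3 rose, at a median of −0.013. Without shGFP tumour 2, 3 fell and none rose. None rose without shVCAN tumour 1, and 1 rose without shVCAN tumour 3, shGFP tumour 1 or shGFP tumour 3. YARS1 fell to 106 ± 4.03 CPM in shVCAN, against 132 ± 3.35 CPM in shGFP (adjusted p = 4.61e-05), and GARS1 to 70.8 ± 5.02 CPM, against 90.003 ± 1.33 CPM in shGFP (adjusted p = 0.000114). The calls of EPRS1 and IARS1 (adjusted p = 0.00434 and 0.00847) were lost with library size alone (adjusted p = 0.582 and 0.671). IARS1 was also not called with the exonic length offset (adjusted p = 0.129) or without shGFP tumour 2 (adjusted p = 0.0747).

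The other arms of the unfolded protein response, run by ATF6 and by IRE1 with XBP1, are known to raise chaperones of the endoplasmic reticulum. Of 18 tested genes 11 fell, 3 rose and 4 were not called, at a median of −0.26. With library size alone 5 fell and 6 rose, at a median of −0.095. With upper quartile factors 5 rose, and with the exonic length offset 1 rose. The sensor ERN1 (IRE1) fell to 24.2 ± 0.399 CPM in shVCAN, against 42.0 ± 1.46 CPM in shGFP (−0.80, SE 0.09, adjusted p = 1.88e-08). Calreticulin (CALR) fell to 1321 ± 47.5 CPM, against 1663 ± 28.4 CPM in shGFP (adjusted p = 1.09e-07), and EDEM1, of the degradation of misfolded proteins, to 97.6 ± 4.78 CPM, against 132 ± 8.04 CPM in shGFP (adjusted p = 1.47e-06). The chaperone HSP90B1 rose to 2855 ± 68.4 CPM in shVCAN, against 2111 ± 86.2 CPM in shGFP (0.44, SE 0.0404, adjusted p = 3.95e-10).

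**Figure D4:**
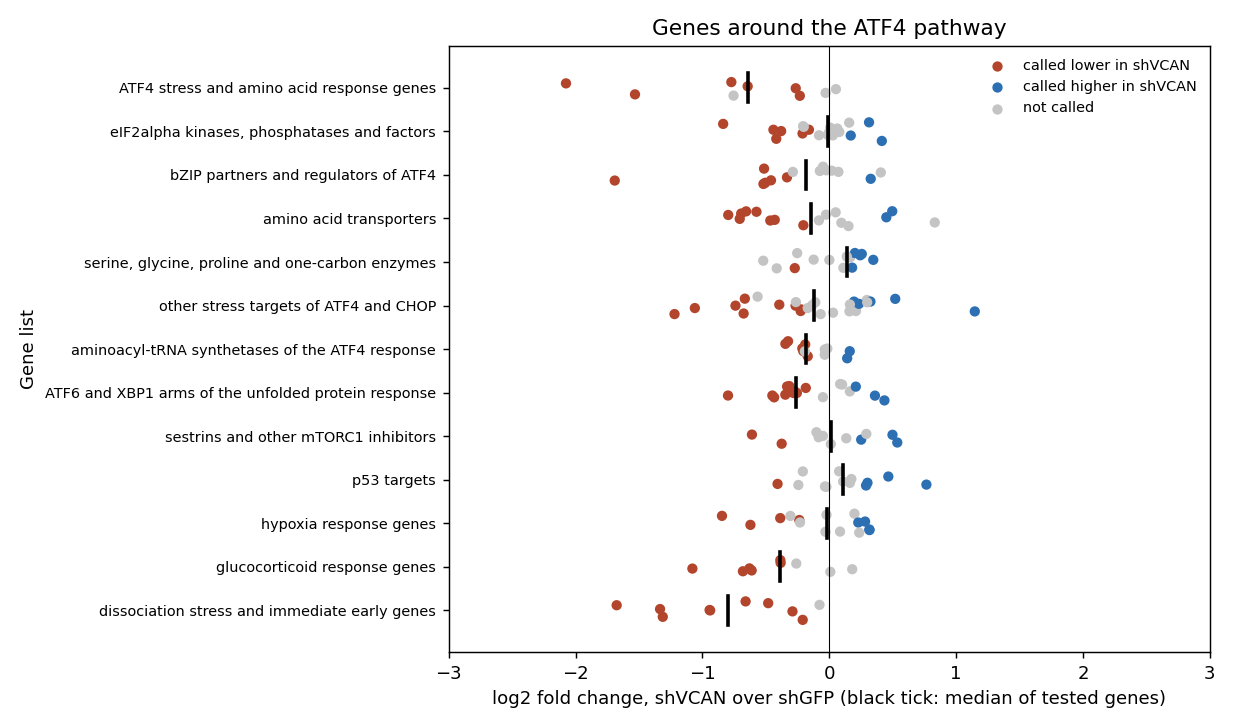
Log2 fold changes (shVCAN over shGFP) of the tested genes of 13 gene lists, one row per list, with a black tick at each median. The ATF4 stress and amino acid response genes at the top have a median of −0.64, the serine, glycine, proline and one-carbon enzymes one of 0.14.

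Genes of related function, and genes that share other known inducers with members, were listed next. The list of mTORC1 inhibitors was set by function and not by a shared inducer. Of 11 tested mTORC1 inhibitors besides the members, 3 rose, 2 fell and 6 were not called, at a median of 0.013. Without shVCAN tumour 3 only 1 rose and 1 fell, without shGFP tumour 3 only 1 rose, and without shGFP tumour 2 only 1 fell. With library size alone 5 rose and none fell (median 0.18), with upper quartile factors 5 rose, and with the exonic length offset 1 fell. NPRL2, of the GATOR1 complex, rose to 37.5 ± 2.10 CPM in shVCAN, against 25.8 ± 1.90 CPM in shGFP (adjusted p = 3.09e-05). TSC1 was at 36.7 ± 3.32 CPM in shVCAN and 47.7 ± 1.62 CPM in shGFP tumours (adjusted p = 0.000622), which was 0.0522 with library size alone and 0.071 with the exonic length offset. DEPTOR, which binds mTOR, was at 4.37 ± 0.874 CPM in shVCAN and 6.68 ± 0.172 CPM in shGFP tumours (adjusted p = 0.0204), not called with library size alone (0.0889) or without shVCAN tumour 2 (0.0748), shVCAN tumour 3 (0.0669) or shGFP tumour 2 (0.0576).

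Of 13 tested p53 targets, relevant because GDF15 and SESN2 are also p53 targets, 4 rose, 1 fell and 8 were not called, at a median of 0.11. With library size alone 8 rose and none fell, at a median of 0.28. PC-3 is known to lack functional p53. MDM2 rose to 90.4 ± 9.66 CPM in shVCAN, against 65.5 ± 4.84 CPM in shGFP (log2 fold change 0.47, adjusted p = 9.34e-06), and RRM2B and FDXR rose by 0.29 and 0.30 (adjusted p = 0.00295 and 0.00766). The death receptor FAS was at 4.23 ± 0.254 CPM in shVCAN and 2.47 ± 0.571 CPM in shGFP tumours (adjusted p = 0.0217), a call lost without shVCAN tumour 1 (0.058), shVCAN tumour 3 (0.0672), shGFP tumour 2 (0.0894) or shGFP tumour 3 (0.0539). The kinase gene PLK3 was the only p53 target called lower (log2 fold change −0.41, adjusted p = 0.0261), and no p53 target was without shVCAN tumour 1, shVCAN tumour 3 or shGFP tumour 1, with library size alone or in DESeq2.

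Hypoxia response genes, which share a known inducer with DDIT4, were divided, with 4 higher, 4 lower and 7 not called of 15 tested. VEGFA fell to 79.6 ± 6.65 CPM in shVCAN, against 122 ± 7.55 CPM in shGFP (adjusted p = 9.99e-09), ADM fell by 0.85 on the log2 scale (adjusted p = 3.68e-06) and the glucose carrier SLC2A1 by 0.39 (adjusted p = 6.68e-05). The collagen hydroxylase P4HA1 rose by 0.28 (adjusted p = 7.9e-05). With library size alone 6 rose and 3 fell. The list median of −0.021 lay above 0 with library size alone (0.15), upper quartile factors (0.018) and the length offset (0.064). Of 9 tested glucocorticoid response genes 6 fell, none rose and 3 were not called, at a median of −0.39. With library size alone, upper quartile factors or the exonic length offset 1 rose. The phosphatase DUSP1 fell to 18.3 ± 2.20 CPM in shVCAN, against 38.7 ± 1.19 CPM in shGFP (−1.08, SE 0.103, adjusted p = 7.28e-10). ERRFI1, a feedback inhibitor of the EGF receptor, fell to 168 ± 5.50 CPM, against 257 ± 3.50 CPM in shGFP (adjusted p = 5.34e-11). The glucocorticoid receptor NR3C1 fell by 0.63 (adjusted p = 1.72e-06) and TSC22D3 by 0.39 (adjusted p = 0.000617).

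Immediate early and dissociation stress genes, which respond within minutes to handling of tissue, were lower in shVCAN tumours too. Of 10 tested, 9 fell and none rose, at a median of −0.80. With library size alone 6 fell, at a median of −0.63. JUNB fell to 31.6 ± 2.93 CPM in shVCAN, against 60.7 ± 4.13 CPM in shGFP (adjusted p = 2.26e-10), FOS to 2.19 ± 0.216 CPM, against 6.99 ± 1.25 CPM in shGFP (adjusted p = 1.44e-06), and the cochaperone DNAJB1 to 420 ± 6.52 CPM, against 586 ± 32.7 CPM in shGFP (adjusted p = 1.28e-09). IER2 fell by 0.29 on the log2 scale (adjusted p = 7.7e-06, and 0.0514 with library size alone). Their part in the fall of the ATF4 targets was not tested.

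Within a group the members did not rank the tumours in a shared order. In shVCAN tumours the highest of the group was tumour 1 for 2 of the 9 tested genes, tumour 2 for 2 and tumour 3 for 5. In shGFP tumours it was tumour 1 for 5 genes, tumour 2 for 1 and tumour 3 for 3. Apart from ASNS, deviations from the group mean stayed between −0.17 and 0.23 on the log2 CPM scale. The 5 non-member genes whose standardised profile over the 6 tumours lay nearest to the members' mean profile, of 11407 genes with at least 5 CPM, were THOC2, PTPN14, DDI2, GPC3 and RBMS2. Their root mean square differences from it were 0.264 to 0.270 SD units, against 0.292 for DDIT4, the nearest member, and 1.23 for PSAT1, the farthest. GPC3, a cell surface proteoglycan, had 168, 149 and 152 CPM in shVCAN tumours, against 373, 305 and 334 CPM in shGFP tumours. All 5 had lower means in shVCAN tumours, which their choice by likeness to a profile lower in shVCAN fixed in advance. They were picked from 11407 genes for a small difference, so their closeness beside that of DDIT4 is no separate result. The likeness is measured over 6 tumours in 2 groups only.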

How the data were processed

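RNA of 6 xenograft tumours was sequenced as paired reads of 150 bp, per the labels' protocols. The submitters' processing notes name Trim Galore, STAR, DESeq2 and hg38, without roles. What the authors deposited are raw counts of reads for each gene, whole numbers with no normalisation. The counting program, annotation, strand setting and any removal of mouse reads are not stated in the sources used here, so reads of mouse origin may be among the counts. Of 67071 rows, 45 second copies of pseudoautosomal genes (0 counts) were left out. Symbols came from a gene table (60370 identifiers) and GENCODE 29 (289 more), and 6367 had none. Older symbols were matched through the gene table. Positions, exonic lengths and overlaps came from GENCODE 29, which uses GRCh38 (hg38).

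Groups were compared with edgeR 4.0.16 in R 4.3.3 (quasi-likelihood, TMM, filterByExpr, group as the only term, 16254 genes tested), with Benjamini-Hochberg adjustment over all tested genes. The SE is the size of the log2 fold change over the square root of F, and the 95% intervals use 29.8 degrees of freedom. Log2 CPM used a prior count of 2. The fit was tested on simulated data. Chi-square per gene between libraries (genes with at least 50 counts) was 3.45 to 6.61 within groups and 48.9 to 83.5 between them, so no 2 libraries were alike within sampling noise. With 3 tumours per group and these depths, genes of few counts such as ASNS carry a wide error, and amplified reads are not independent molecules.

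The members and lists were chosen with earlier results of these data known. Named were all 10 members, VCAN, up to 4 called genes of smallest p in each pathway list other than the mitochondrial messenger RNAs, the 5 nearest profiles, and promoter windows with TGATGNAA. One gene that the rule names is not reported here. CHAC2, SLC7A5, PLK3, EIF2AK2, EIF2AK4 and SESN3 were named after their values were seen. The same holds for the windows of GDF15 and DDIT4, the motif TGACGT and the genes listed at 0. Alternatives were DESeq2 1.42.0 size factors and Wald test, upper quartile factors, library size alone, no filter, 1 CPM in 3 samples, limma-voom (limma 3.58.1), a replicate block, each tumour left out, an exonic length offset (lowess span 0.3, genes of at least 4 CPM), the table without mitochondrial messenger RNAs, an adjusted p under 0.01 and a rule of at least 2-fold.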

Additional observations from a re-analysis of the deposited data

How the results depend on the processing

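Over 73 single-gene results, 1128 of 1164 values under an alternative kept direction and call, 29 lost the call, 2 gained one and 5 changed sign without a call. GDF15, DDIT4, TRIB3 and CHAC1 were called lower in every alternative run, apart from the rule of at least 2-fold, which left 2 members. Members called lower numbered 4 with library size alone and 7 with the exonic length offset, and 6 whichever tumour was left out. DDIT3 had a log2 fold change above 0 with library size alone (0.14), with upper quartile factors (0.011), without shGFP tumour 1 (0.067) and without shVCAN tumour 3 (0.023), with a range of −0.086 to 0.067 over the tumours left out, and PSAT1 one below 0 with the length offset (−0.10). None of these was called, and the cause was not tested. Over all tested genes 3425 were called lower and 3120 higher. With library size alone these were 1890 and 5228, and with the 2-fold rule 435 and 450, which are fewer by that rule's construction. Leaving out a tumour gave 2938 to 3438 genes called lower and 2596 to 3086 called higher. Tumours of the same number did not deviate together over all tested genes (correlations of 0.0176, 0.0157 and −0.0271). A pairing that touches only some genes could be missed by such correlations, so they do not settle whether the replicate number pairs tumours. With the replicate block 6 members, 3428 genes called lower and 3083 called higher were found. Few reads limit ASNS, and the strand setting limits DDIT3 and DDIT4.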
